A study of Mus musculus with 768 samples.

Results

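Cholesterol is made, sensed, stored and exported by a well-known set of genes, and 34 of them, out of 25700 genes in the count table, are described here in developing Schwann cells, the glia that wrap and myelinate axons in peripheral nerve. Its rule is membership by known function and uses no measured value, although the set was put together with earlier results of these data known. It holds 18 enzymes of cholesterol synthesis, 7 regulators, 2 uptake receptors, 4 genes for movement and storage inside the cell, and 3 genes for efflux and carriage. All 34 were found in the table by their Ensembl identifier, and all 34 had reads in both plates.

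The cells came from sciatic nerves of mice at postnatal day 5 that carried P0Cre-/+, ReYFP Tg/+ and βAct-DsRed Tg/+ on the C57bl/6J background, and every cell compared shares this genotype, age and tissue. P0Cre switches on YFP in the Schwann cell lineage, and single YFP-positive cells, caught in 2 plates with 384 positions each, were read by Smart-Seq2, a full-length RNA protocol. βAct-DsRed gives all cells a red label, and debris low in this signal was discarded in the study's sorting strategy. The labels number the 2 plates as biological replicates, and each held cells pooled from 1 male and 1 female mouse, so that plates are the replicates and wells are not. The labels name 1 group only, and 4 states were therefore cut from the cells' own RNA with genes that are not members: cycling (5 reads or more in at least 3 of 10 cell cycle genes), and, among the others, immature (Ncmap under 10 CPM), intermediate (Ncmap at 10 CPM or more with Pmp22 under 30000 CPM) and myelinating (Pmp22 at 30000 CPM or more). CPM are a gene's reads per 1000000 reads of the well or sum.

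After removal of wells with fewer than 1500 detected genes and of the corner wells, 655 of 768 wells remained. Plate 1 held 32 cycling, 106 immature, 79 intermediate and 108 myelinating wells, and plate 2 held 25, 122, 70 and 113. The 8 sums of reads over the wells of 1 state and plate ranged from 13925435 to 98479212 reads. States cut from levels of single genes are ranges and not cell types: 40 wells had Pmp22 between 24000 and 36000 CPM, 12 had Ncmap between 5 and 20 CPM, and 4 wells entered the cycling gate with exactly 3 genes while 21 fell outside with 2. Some genes outside the gates varied with the states. The median over wells of Ncam1, an adhesion molecule of immature Schwann cells, was 405 CPM in immature, 3.45 in intermediate and 0 in myelinating wells, and that of Cdkn1c, a cell cycle inhibitor, was 147, 688 and 1.22 CPM. Ngfr, which the study also used as a marker of immature Schwann cells, had a median of 0 CPM in each of these states and 9.58 in cycling wells.

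Cholesterol is built in the cytosol and endoplasmic reticulum from acetyl-CoA by way of mevalonate, the isoprenoid farnesyl diphosphate, squalene and lanosterol. When sterol is scarce, Scap carries the transcription factors encoded by Srebf1 and Srebf2 to the Golgi for activation, and Insig proteins hold them back when sterol is plentiful. When sterol is in excess, liver X receptors such as Nr1h2 turn on genes for efflux and carriage, among them Abca1, Abcg1 and Apoe, and Mylip, which removes lipoprotein receptors from the cell surface. Myelin is among the membranes richest in cholesterol, and Schwann cells depend largely on their own synthesis to form it.

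The start regions of the enzyme genes had sequence features in common that the choice of members did not use. Of the 34 members, 28 had a window of 300 bases (250 before and 50 after a start site) in RefSeq, build GRCm38.p6, 15 of them enzymes. Exact letters were searched on both strands. CCAAT, the box bound by the factor NF-Y, was in a window of 14 of 15 enzyme genes (93.3%), of 8 of 13 other members (61.5%) and of 41.1% of all 27025 genes with a window. Counted by window, since genes can have several, the shares were 77.8% for enzymes, 42.9% for other members and 37.4% of all 32851 windows. GGGCGG, the box of the Sp family, was in windows of 14 enzyme genes (93.3%), 11 other members (84.6%) and 38.2% of all genes. The letters TCACNCCAC, a form of the sterol regulatory element that the Srebf factors bind, were in 1 of the 15 enzyme genes, Hmgcs1, against 1.44% of all genes, and GCGNGGGCG, a form bound by the Egr family, was in 1 enzyme gene, in 2 other members and in 6.27% of all genes. A match is a description of these letters, not of binding. The 250 bases before the start site are shown for Hmgcs1 (chr13:119690101-119690350, plus strand), which held the sterol element, for Mvk (chr5:114444019-114444268, plus strand) and Msmo1 (chr8:64733579-64733828, minus strand), which held 5 and 3 CCAAT boxes, and for Apoe (chr7:19699189-19699438, minus strand), the abundant carrier gene whose windows held none of these 4 motifs. Capitals mark TCACNCCAC and CCAAT on either strand, where ATTGG is the reverse complement of CCAAT.
Hmgcs1: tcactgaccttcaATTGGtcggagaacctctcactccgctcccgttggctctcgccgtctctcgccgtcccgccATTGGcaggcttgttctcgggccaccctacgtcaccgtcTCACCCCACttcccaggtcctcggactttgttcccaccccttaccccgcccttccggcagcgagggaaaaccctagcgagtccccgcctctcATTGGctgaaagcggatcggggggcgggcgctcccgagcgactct
Mvk: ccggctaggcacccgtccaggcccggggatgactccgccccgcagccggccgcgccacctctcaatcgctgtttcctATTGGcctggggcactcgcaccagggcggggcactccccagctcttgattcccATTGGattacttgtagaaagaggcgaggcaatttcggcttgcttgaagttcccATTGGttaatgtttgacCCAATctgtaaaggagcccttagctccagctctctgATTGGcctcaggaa
Msmo1: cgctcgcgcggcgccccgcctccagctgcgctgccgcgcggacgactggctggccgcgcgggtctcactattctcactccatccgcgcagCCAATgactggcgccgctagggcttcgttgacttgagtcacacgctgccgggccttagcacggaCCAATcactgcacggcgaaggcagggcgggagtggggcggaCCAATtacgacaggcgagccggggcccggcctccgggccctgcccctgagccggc
Apoe: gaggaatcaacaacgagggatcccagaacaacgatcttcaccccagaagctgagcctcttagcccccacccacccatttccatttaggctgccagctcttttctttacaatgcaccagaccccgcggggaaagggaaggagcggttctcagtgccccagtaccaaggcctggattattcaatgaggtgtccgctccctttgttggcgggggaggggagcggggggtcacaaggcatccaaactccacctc

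The enzymes of cholesterol synthesis were highest in the myelinating state, and nearly all of them stepped up from immature to intermediate to myelinating cells. The summed level of the 18 enzymes was 1376 and 1477 CPM in the immature sums of plates 1 and 2, 3293 and 3164 CPM in the intermediate sums, and 9020 and 9077 CPM in the myelinating sums. The cycling sums stood at 1276 and 1094 CPM, below both immature sums. No plate of 1 state overlapped a plate of another in this total. Taken singly, 15 of 18 enzymes had immature, intermediate and myelinating sums that stepped up without overlap between plates (83.3%), beside 4.13% of 8335 genes with a mean of at least 10 CPM, and none stepped down, beside 11.5% of those genes. The other members gave Npc2 stepping up and Srebf1, Soat1 and Apoe stepping down. On the scale of TMM, which corrects for a few genes taking many reads, those 15 enzymes stepped up beside 7.52% of genes, while Srebf1 no longer stepped down and Nr1h2 stepped up.

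**Figure D1:**
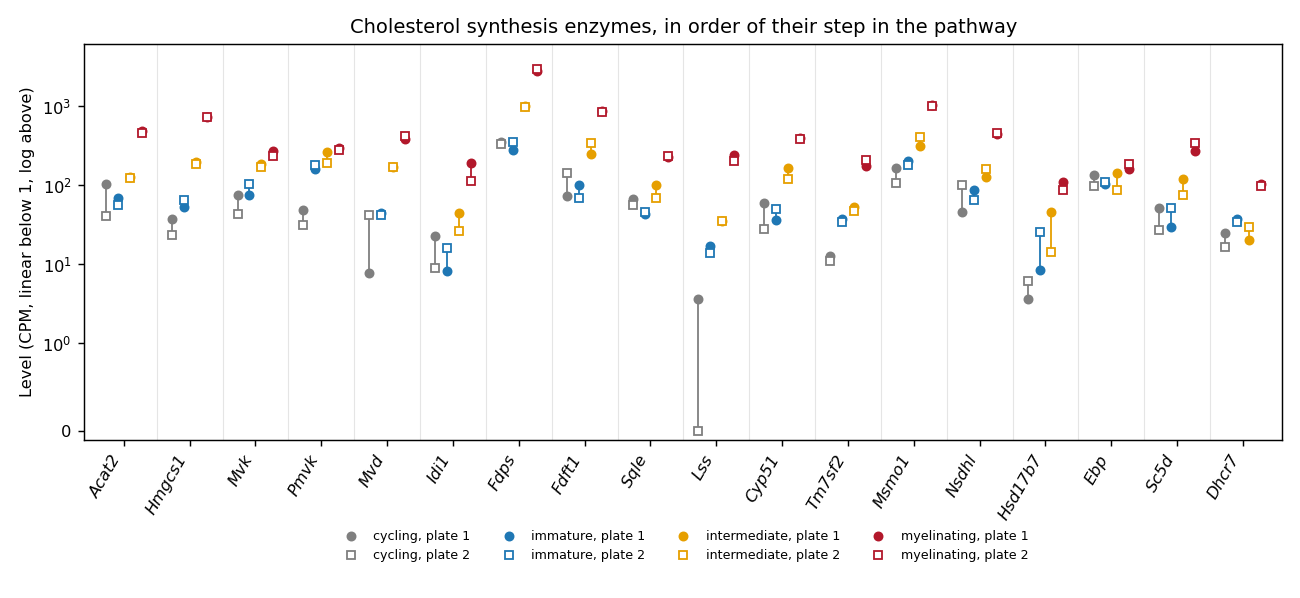
Level of each of the 18 synthesis enzymes (y axis, CPM of summed reads, linear below 1 and log above) in the 4 states, with genes on the x axis in order of their step in the pathway. Filled circles are plate 1 and open squares plate 2, joined by a line. Myelinating sums lie highest for all 18 genes, and Hsd17b7, Ebp and Dhcr7 are the 3 whose levels did not step up through the intermediate state without overlap.

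The first 7 enzymes lead from acetyl-CoA to farnesyl diphosphate, and all 7 were higher in myelinating than in immature cells. Acat2, the thiolase that joins 2 acetyl-CoA units, stood at 68 and 55 CPM in the immature sums, 125 and 122 in the intermediate and 474 and 447 in the myelinating sums. Hmgcs1, the synthase of the next step (chromosome 13, 119690379 to 119708260), stood at 51.7 and 64.6, then 192 and 185, then 726 and 727 CPM. In both genes the 2 plates of a state lay close together and no state overlapped the next. The mevalonate kinases changed least. Mvk stood at 74.7 and 102 CPM in immature and 264 and 229 in myelinating sums, and Pmvk at 159 and 178 against 290 and 272 CPM. Mvd, the decarboxylase that makes isopentenyl diphosphate, had 43.5 and 40.8 CPM in immature, 167 and 166 in intermediate and 383 and 409 in myelinating sums. Idi1, the isomerase of that product, rose from 8.1 and 15.9 to 186 and 112 CPM between the immature and myelinating sums, and its 2 plates differed more than those of its neighbours in the pathway.

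Fdps, farnesyl diphosphate synthase (chromosome 3, 89093588 to 89101959), had the highest CPM of the enzymes in all 4 states. It had 275 and 350 CPM in immature, 973 and 947 in intermediate and 2739 and 2904 in myelinating sums, and again no state overlapped the next. Per kilobase of exon, the scale on which genes can be set side by side, Fdps stood at 670 CPM per kb in myelinating cells, and the next enzymes were Mvd at 213, Fdft1 at 200 and Acat2 at 181. Dhcr7 was lowest of the 18 at 17.1 and Hsd17b7 next at 18.9 CPM per kb. In immature cells Pmvk, at 98.3 CPM per kb, stood above Fdps at 74.3. Fdps shares 1124 exon bases (26.7% of its exons) with the unnamed gene Gm43738 on the same strand, which had 2690 CPM in myelinating cells, close to the 2821 CPM of Fdps, so that their reads cannot be told apart.

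Squalene and lanosterol are made by the next 3 enzymes. Fdft1, squalene synthase, stood at 100 and 67.6 CPM in immature, 245 and 334 in intermediate and 860 and 832 in myelinating sums. Sqle, squalene epoxidase, went from 42.6 and 45.5 through 98.4 and 68.4 to 227 and 232 CPM. Lss, lanosterol synthase, went from 16.9 and 13.5 through 34.7 and 34.7 to 239 and 202 CPM. All 3 stepped up without overlap, but Lss did not pass edgeR's test between myelinating and immature cells (it did without a filter on low counts, in thinned wells, with the Pmp22 gate at 45000 CPM and with cycling from 2 genes), and its immature reads came from 10 and 8 wells.

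Of the 8 enzymes that turn lanosterol into cholesterol, 6 passed the test between myelinating and immature cells. Msmo1, the oxidase that removes methyl groups from sterols, had the highest CPM of the 8, at 202 and 179 CPM in immature, 312 and 400 in intermediate and 1004 and 977 in myelinating sums. Cyp51, the lanosterol demethylase, went from 35.6 and 49.7 through 164 and 119 to 386 and 380 CPM. Nsdhl, a sterol dehydrogenase, went from 85.5 and 64.9 through 124 and 158 to 437 and 448 CPM. The plates of a state again lay closer to each other than to the next state. Tm7sf2, a sterol reductase, had 36.3 and 33.9 CPM in immature and 52.1 and 46.7 in intermediate sums, without overlap, and reached 170 and 205 CPM in myelinating sums. Sc5d, a sterol desaturase, went from 29.2 and 50 through 118 and 74.3 to 267 and 339 CPM.

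Dhcr7, which reduces 7-dehydrocholesterol to cholesterol in the last step (chromosome 7, 143823145 to 143848410), did not step up through the intermediate state. Its level was 36.8 and 33.8 CPM in immature, 19.7 and 29.2 in intermediate and 103 and 96.4 in myelinating sums. The intermediate plates lay below both immature plates, and the myelinating plates above all, but the difference between intermediate and immature cells did not pass the test. Hsd17b7, a sterol ketoreductase, overlapped between immature (8.38 and 25.5 CPM) and intermediate sums (45.5 and 14) and stood at 107 and 85.1 CPM in myelinating sums. Of its 452 reads in the immature sum of plate 1, 74.3% came from 1 well. Ebp, a sterol isomerase, had the smallest log2 change of the 18 between myelinating and immature cells, at 103 and 107 CPM in immature, 142 and 85.5 in intermediate and 156 and 180 in myelinating sums.

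Between myelinating and immature cells, 17 of the 34 members were higher, beside 2.6% of the 13904 genes tested by edgeR's quasi-likelihood test at an adjusted p under 0.05, and 2 were lower, beside 2.54%. Of the 18 enzymes, 15 were higher and none lower, with a median log2 change of 3.11. Over the 16 other members, 2 were higher and 2 lower with a median of 0.14, and the median over all genes was -0.04. The 10 largest increases among the members that passed were all of enzymes. Hmgcs1 rose by 4.03 ± 0.26 on the log2 scale (SE, adjusted p = 6e-05) and Idi1 by 4.02 ± 0.62 (adjusted p = 0.0059), each about 16-fold in the fit (16.3 and 16.2). Fdft1 rose by 3.72 ± 0.35 (adjusted p = 0.00044), Mvd by 3.61 ± 0.64 (adjusted p = 0.013), Fdps by 3.56 ± 0.16 (adjusted p = 7.5e-06) and Cyp51 by 3.55 ± 0.39 (adjusted p = 0.00093). Sc5d (3.32 ± 0.43), Acat2 (3.29 ± 0.39), Nsdhl (2.94 ± 0.36) and Tm7sf2 (2.80 ± 0.29) had adjusted p from 0.00066 to 0.0024. The other 7 members that rose were Sqle, Msmo1, Insig1, Dhcr7, Mvk, Pmvk and Npc2, with log2 changes from 0.82 for Npc2 to 2.76 for Sqle and Msmo1. In all 17, both plates showed the rise and the sums did not overlap. The comparisons share sums, since immature cells are the reference of 3 of them and intermediate and myelinating cells each enter 2.

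The counts moved with the scaling. With library size alone in place of TMM, the median over all genes was -0.42 and the calls over all genes split into 252 higher and 697 lower, against 362 and 353. Under that setting 14 members were higher and 3 lower. Dhcr7, Npc2 and Pmvk were no longer called higher, and Soat1 was called lower. Pmvk was also lost with at least 2500 genes per well and without plate columns 8 and 16. No member named with its log2 change turned its sign under any alternative run.

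**Figure D2:**
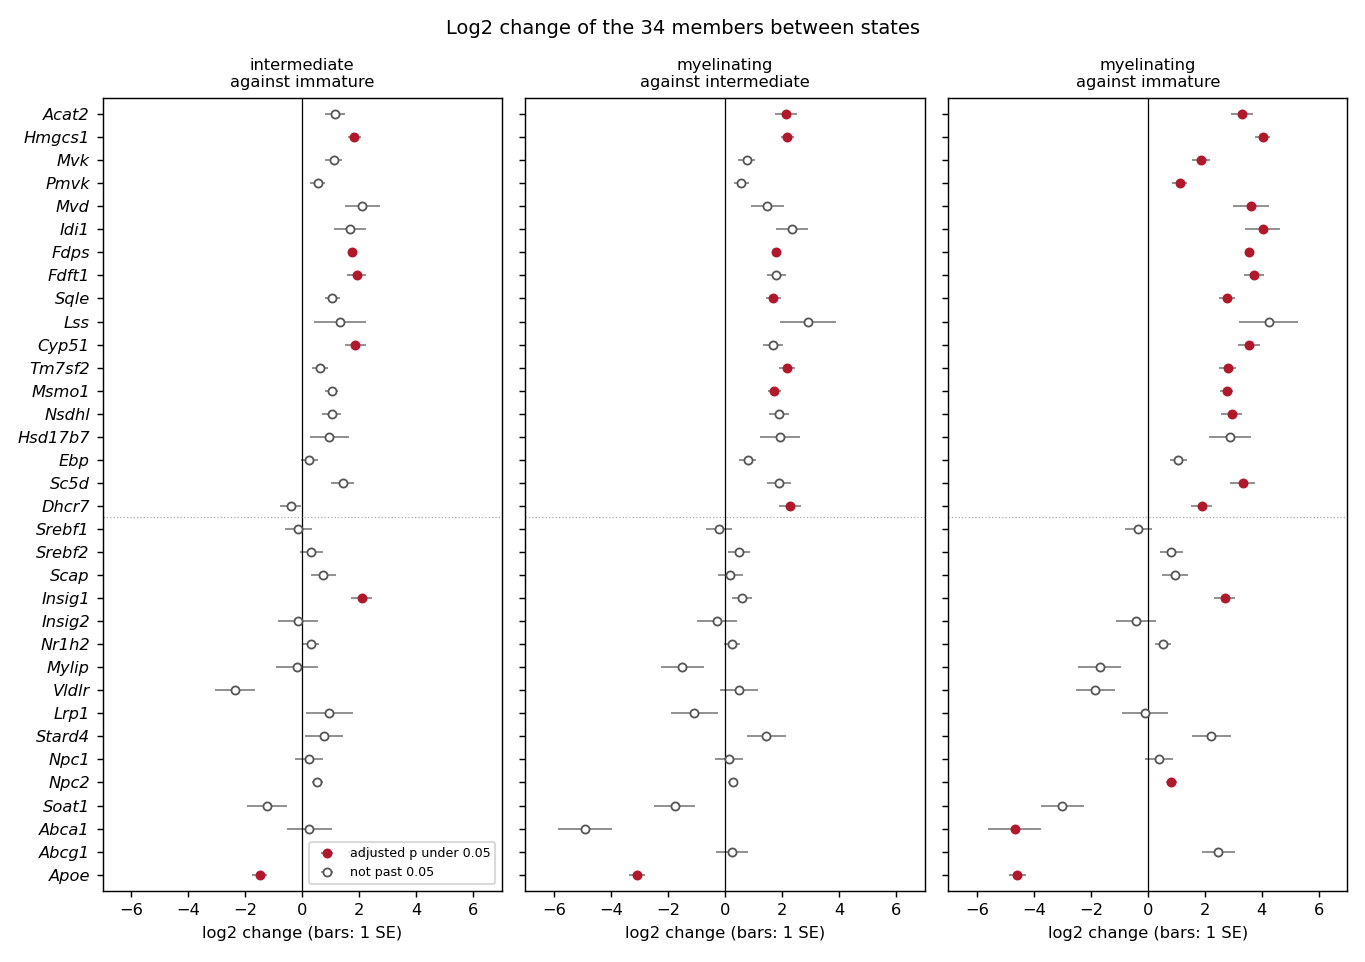
Log2 change of the 34 members (y axis, enzymes above the dotted line) in 3 comparisons, with bars of 1 SE from the fit to 2 plates per state. Filled red points passed an adjusted p of 0.05 and open points did not. All 18 enzymes lie right of 0 against the immature state in the right panel, and Apoe lies left of 0 in all 3.

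The intermediate state held part of the rise. Against immature cells 5 members were higher, beside 0.985% of all genes, and 1 was lower, beside 1.01%. Fdft1 rose by 1.92 ± 0.33 on the log2 scale (adjusted p = 0.023), Hmgcs1 by 1.84 ± 0.24 (adjusted p = 0.0063) and Fdps by 1.76 ± 0.15 (adjusted p = 0.00071). Cyp51 rose by 1.87 ± 0.36 (adjusted p = 0.037), and with the plate as a block its value was 1.82 with an adjusted p of 0.056. Its call was also lost with library size alone. The fifth was the regulator Insig1. Of the 28 members that did not pass, 22 had log2 changes above 0 (range over the 28 from -2.34 to 2.22), and the median was 1.13 over the enzymes and -0.03 over all genes.

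These calls depended on where the intermediate state ended. With the Pmp22 gate at 20000 CPM, which left 59 and 52 wells in the state, no member passed in either direction, and Fdps was at a log2 change of 0.65 and Hmgcs1 at 0.84. Of the 13812 genes tested with that gate, 79 were higher and 116 lower. With the gate at 45000 CPM, which gave 105 and 89 wells, 11 members were higher, beside 199 of 13969 genes tested. The gate at 30000 CPM gave 5 members and 137 genes.

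From intermediate to myelinating cells, 7 members were higher, beside 0.36% of all genes, and 1 was lower, beside 0.424%. All 7 were enzymes. Dhcr7 rose by 2.28 ± 0.38 on the log2 scale (adjusted p = 0.036, and 0.067 with the plate as a block), Hmgcs1 by 2.19 ± 0.24 (adjusted p = 0.0048) and Tm7sf2 by 2.17 ± 0.28 (adjusted p = 0.009). Acat2 (2.14 ± 0.37, adjusted p = 0.044), Fdps (1.80 ± 0.15, adjusted p = 0.0011), Msmo1 (1.73 ± 0.22, adjusted p = 0.009) and Sqle (1.70 ± 0.27, adjusted p = 0.025) rose as well. In each of the 7, both plates rose and the sums did not overlap. With library size alone in place of TMM, 5 were higher and 2 lower, without Acat2 and Dhcr7 and with Abca1 called lower, and the calls over all genes split into 31 higher and 110 lower against 50 and 59. With the Pmp22 gate at 45000 CPM, 3 members were higher, beside 26 of 13969 genes tested. With the gate at 20000 CPM 12 members were, beside 61 of 13812 genes.

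Single wells showed how the enzymes were spread over cells within a state. The summed level of the 18 enzymes had a median over wells of 1133 and 1147 CPM in immature wells, 1625 and 1591 in intermediate wells and 8789 and 9139 in myelinating wells. In intermediate wells the lowest 10% lay at or under 334 CPM and the highest 10% from 7684 CPM in plate 1. The same limits were 646 and 8326 CPM in plate 2. In immature wells they were 203 and 3010 CPM in plate 1 and 129 and 2614 CPM in plate 2. In myelinating wells they were 3347 and 13565 CPM, and 3526 and 13469 CPM. Above the ninetieth percentile of the immature wells of their own plate lay 31.6% and 38.6% of intermediate wells and 91.7% and 94.7% of myelinating wells.

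The spread among intermediate wells followed Pmp22, a myelin protein gene and the gate of the state. Spearman's rho between the summed enzymes and Pmp22 was 0.77 over 79 wells and 0.70 over 70 wells in the intermediate state, and 0.14 and -0.06 over the 108 and 113 myelinating wells. The gate at 30000 CPM cuts the range of Pmp22 in each state, so rho cannot be compared between the states. With reads per well, rho was -0.01 and 0.13 in the intermediate state. Both measures in each pair come from 1 library per well, so these values describe the wells. In bins chosen after the data were seen, Ncmap-positive wells under 10000 CPM of Pmp22 (35 and 32 wells) had summed enzymes of 919 and 1112 CPM, below the immature sums. Wells from 10000 to 20000 CPM (24 and 20) had 2900 and 2942 CPM, and wells from 20000 to 30000 CPM (20 and 18) had 6954 and 6692 CPM. Beyond the gate the level stood at 8216 and 8940 CPM from 30000 to 45000 (26 and 19 wells) and at 9215 and 9103 CPM above that (82 and 94 wells), so that most of the increase lay between 10000 and 30000 CPM of Pmp22.

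**Figure D3:**
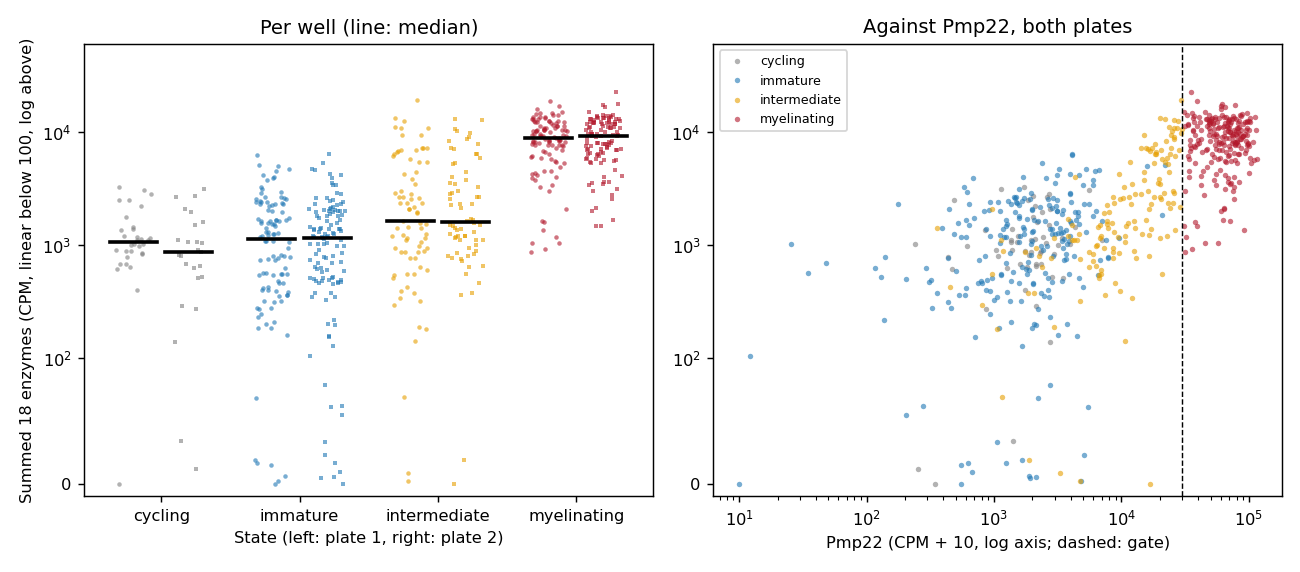
Summed level of the 18 enzymes in each of the 655 wells (y axis, CPM, linear below 100 and log above). The left panel groups wells by state and plate with a line at the median, and the right panel sets the same values against Pmp22 (x axis, CPM + 10, log), with the gate at 30000 CPM dashed. Intermediate wells run from the level of immature wells to that of myelinating wells as Pmp22 rises.

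More wells had reads of each enzyme in the myelinating state. In wells thinned to 100000 reads, the median well held reads of 4 and 5 of the 18 enzymes in the immature state, 7 and 8 in the intermediate and 16 and 16 in the myelinating state (5, 6, 8, 9, 16 and 17 before thinning). Over all genes, the median thinned well held reads of 2806 genes in the immature and 3438 in the myelinating state. Hmgcs1 was read in 30.7% and 35% of thinned immature wells, 61.1% and 58% of intermediate and 95.3% and 99.1% of myelinating wells. Lss was read in 7.92% and 5.98%, then 22.2% and 20.3%, then 69.8% and 80.5%. A well with no read can hold RNA that was not captured, so fewer cells with a transcript and less of it per cell cannot be told apart by the sums alone. The median Spearman's rho over the 153 pairs of enzymes was 0.31 and 0.31 in intermediate and 0.27 and 0.28 in myelinating wells. It was 0.09 and 0.12 in immature wells, where most values are 0. Ties at 0 limit rho, so these values do not show whether the enzymes varied together more in the later states.

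**Figure D4:**
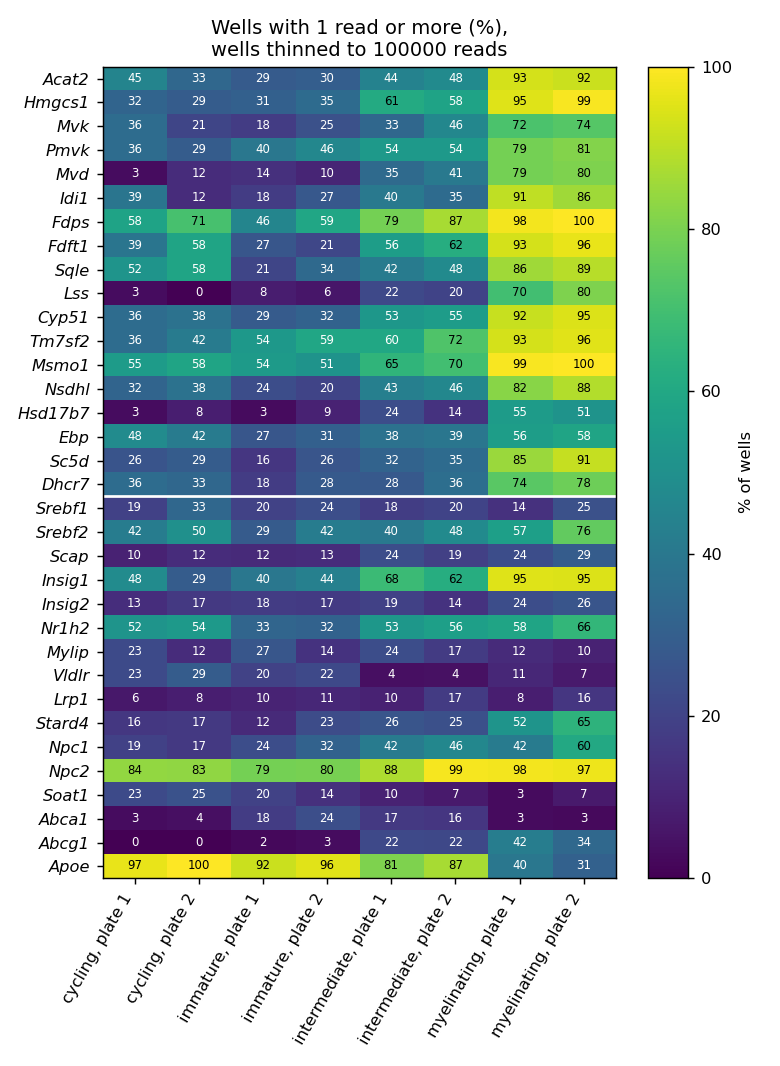
Share of wells with 1 read or more of each member (colour and number, percent) after thinning wells to 100000 reads, in the 4 states and 2 plates. Enzymes stand above the white line, and their shares are highest in the 2 myelinating columns, where Apoe is read in 39.6% and 31% of wells against 92.1% and 95.7% of immature wells.

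Among the 7 regulators, Insig1 was called in 2 comparisons, and the other 6 in none of the 4. Insig1, which retains the Srebf factors in the endoplasmic reticulum (chromosome 5, 28071363 to 28078662), stood at 30.7 and 38 CPM in immature, 178 and 88.6 in intermediate and 190 and 150 in myelinating sums. The intermediate and myelinating plates overlapped, and both states lay above the immature. Insig1 rose by 2.10 ± 0.37 on the log2 scale from immature to intermediate cells (adjusted p = 0.027), and it was among the members called higher in myelinating than in immature cells. Wells of plate columns 8 and 16 gave 51.7% of the Insig1 reads of the intermediate sum of plate 1 and 5.38% of all its reads. Without those columns Insig1 was at 1.56 ± 0.27 between intermediate and immature cells (adjusted p = 0.026).

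Srebf2, the master factor of cholesterol synthesis genes, was at 48.7 and 41.3 CPM in immature, 58.9 and 43.9 in intermediate and 54.3 and 67.8 in myelinating sums, and neighbouring states overlapped. Srebf1, better known for fatty acid synthesis, stood at 37.4 and 30 CPM in immature and 19.1 and 21.7 in myelinating sums, with no overlap in CPM but no call. Scap, the escort of the Srebf factors, had 22.7 and 28.9 CPM in immature and 33.1 and 42.9 in myelinating sums. None of these 3 genes passed the test in any comparison. Nr1h2, a liver X receptor, ranged over all 8 sums only from 58.1 to 97.1 CPM. Insig2, a relative of Insig1, had 57.9 and 34.9 CPM in immature and 31.9 and 21 in myelinating sums, and Mylip 43.9 and 22 against 9.83 and 5.8 CPM, both without a call.

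The 2 uptake receptors were low throughout. Vldlr, a lipoprotein receptor, had 29.3 and 22 CPM in immature sums, 6.21 and 2.93 in intermediate and 5.55 and 5.41 in myelinating sums, and Lrp1, a large endocytic receptor, stayed between 3.27 and 19.8 CPM. Neither passed edgeR's test in any of the 4 comparisons, while DESeq2 called Vldlr lower in intermediate than in immature cells. Of the 291 Vldlr reads in the intermediate sum of plate 1, 86.9% came from 1 well.

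Inside the cell, Npc2, which hands cholesterol out of the lysosome, was the most abundant of the 4 genes for movement and storage. It stood at 480 and 383 CPM in immature, 564 and 575 in intermediate and 591 and 576 in myelinating sums, the smallest of the called increases. The call was lost with library size alone, with at least 2500 genes per well and with the Pmp22 gate at 20000 CPM. Npc1, its partner in the lysosomal membrane, had 71.5 and 74.9 CPM in immature and 60.5 and 86.6 in myelinating sums, which overlap. Stard4, a sterol carrier, had 8.08 and 30.8 CPM in immature and 59.7 and 79.9 in myelinating sums, called with DESeq2 and without a filter but not by edgeR's test as run here. Soat1, which esterifies cholesterol for storage, went stepwise in CPM from 40.5 and 22.8 through 8.85 and 15.7 to 2 and 4.07, with reads in few wells, and was called lower in myelinating than in immature cells with DESeq2, without a filter and with library size alone only.

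**Figure D5:**
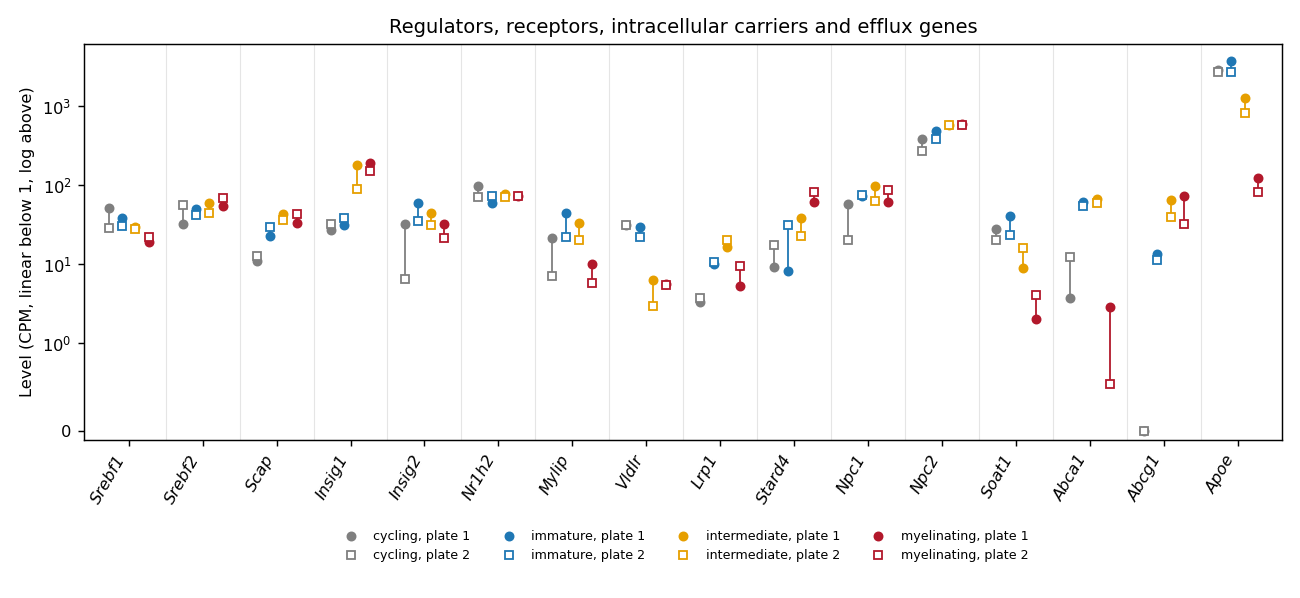
Level of the 16 other members (y axis, CPM of summed reads, linear below 1 and log above) in the 4 states, with filled circles for plate 1 and open squares for plate 2. Apoe lies between 2641 and 3676 CPM in cycling and immature sums and at 121 and 81 CPM in myelinating sums, and Abcg1 is at 0 in both cycling sums.

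The 3 genes for efflux and carriage did not move together. Apoe, the lipoprotein that carries cholesterol between cells (chromosome 7, 19696109 to 19699188), was the most abundant member in CPM in immature and cycling cells. It stood at 3676 and 2693 CPM in immature, 1235 and 813 in intermediate and 121 and 81 in myelinating sums. Its plates did not overlap between these states, and the cycling sums (2830 and 2641 CPM) overlapped the immature. Apoe fell by 4.59 ± 0.30 on the log2 scale from immature to myelinating cells (24.1-fold, adjusted p = 5.9e-05), by 1.49 ± 0.26 from immature to intermediate (adjusted p = 0.026) and by 3.10 ± 0.28 from intermediate to myelinating cells (adjusted p = 0.0017). The second of these was lost with the Pmp22 gate at 20000 CPM (adjusted p = 0.091). In myelinating wells the median was 2.19 and 1.70 CPM, under the level of the sums, and the ninetieth percentile was 542 and 163 CPM, above it.

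Abca1, the transporter that loads cholesterol onto apolipoproteins (chromosome 4, 53030787 to 53159895), stayed at 60.2 and 54 CPM in immature and 65.3 and 58 in intermediate sums, which overlap, and was at 2.88 and 0.527 CPM in myelinating sums, where 73.9% and 76.1% of the reads came from 1 well of each plate. Abca1 fell by 4.67 ± 0.93 on the log2 scale from immature to myelinating cells (adjusted p = 0.021), a call lost with the Pmp22 gate at 45000 CPM (adjusted p = 0.089). Reads of Abca1 were found in 17.8% and 23.9% of thinned immature wells and 2.83% and 2.65% of myelinating wells. Among Ncmap-positive wells its level was 140 and 102 CPM in wells under 10000 CPM of Pmp22, 22.2 and 34.5 from 10000 to 20000 and 1.41 and 11.8 from 20000 to 30000. Abcg1, a transporter of the same family, took the other direction, at 13.4 and 11.1 CPM in immature, 64.1 and 38.8 in intermediate and 71.6 and 32.3 in myelinating sums. It was not called between these states by edgeR, but was called higher than in immature cells in both later states with DESeq2, without a filter on low counts and in thinned wells.

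Apoe and Abca1 are also expressed by other cells of nerve, whose markers were read in the same sums. Of 7 immune markers, 5 (Ptprc, C1qa, C1qb, Lyz2 and Mrc1) stayed under 1 CPM in all 8 sums, the 7 summed to between 4.52 and 20.9 CPM in immature and between 4.05 and 10.9 in myelinating sums, and 0 of 655 wells had 5 reads of 3 of them, which allows a share of up to 0.458%. The 6 fibroblast-like markers summed to 2247 to 2517 CPM in immature, 883 to 1138 in intermediate and 283 to 303 in myelinating sums, mostly from Col3a1 and Col1a1, with Pdgfra and Dpt under 1 CPM throughout, and 21 of 655 wells had 5 reads of 3 of them. Their part in the falls of Apoe and Abca1 was not tested. For the enzymes, markers of adipocytes were at 0 in all sums and those of hepatocytes summed to 1.7 CPM or less.

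Cycling cells differed from immature cells in few members. None was higher, beside 1.29% of all genes, and 3 were lower, beside 1.29%. DESeq2 gave 0 members higher and 5 lower, beside 616 and 749 of 13904 genes. At an unadjusted p under 0.05 in edgeR's test, 0 members were higher and 8 lower. The share over all genes at that threshold is not given here, so these counts cannot be read as a result about the members. The median log2 change was -0.37 over the members and -0.13 over all genes. Pmvk stood at 47.7 and 31.3 CPM in cycling against 159 and 178 in immature sums and fell by 1.99 ± 0.27 on the log2 scale (adjusted p = 0.0087). Tm7sf2 stood at 12.6 and 10.7 against 36.3 and 33.9 CPM and fell by 1.49 ± 0.28 (adjusted p = 0.028). Abcg1 had 0 reads in the 57 cycling wells of both plates, which allows a share of wells with a read of up to 5.26%. Only 4 immature wells of each plate had a read (3.77% and 3.28%), under that share, so the shares of wells cannot show a difference. Counted over reads, against a floor of 3 per plate, Abcg1 was 88.8-fold lower or more in plate 1 and 51.3-fold in plate 2 (edgeR adjusted p = 0.0043). These folds take reads as independent and are no bound over cells. Of the 723 Abcg1 reads in immature wells of plate 1, 720 were from 1 well, and the 3 other wells held 3 reads together, at that floor. The call of Tm7sf2 was lost in thinned wells, and none of the 3 calls held when 2 cell cycle genes sufficed for the cycling gate, which moved the state to 43 and 35 wells. The 16 other enzymes did not pass, with Fdps at 351 and 327 CPM in cycling and 275 and 350 in immature sums.

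Reads of several members cannot be kept apart from those of genes that share exon sequence. Besides Fdps, Tm7sf2 overlaps Vps51 on the same strand. On the opposite strand, which the protocol does not tell apart, the pairs are Idi1 with Gm48574, Fdft1 with Ctsb, Cyp51 with Akap9, Srebf1 with Rai1, Scap with 5830462I19Rik and Npc1 with Rmc1. The shared stretch covered 1.93% (Srebf1) to 18.3% (Fdft1) of the member's exon bases. Between immature and myelinating cells Ctsb went from 423 to 243 CPM while Fdft1 went from 83.9 to 846, and Vps51 from 67.7 to 28.6 while Tm7sf2 went from 35.1 to 187 CPM.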

How the data were processed

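Schwann cells of 768 wells in 2 plates were measured by Smart-Seq2. The values are whole-number read counts per gene and well, which the authors deposited in 1 table. The submitters' processing notes name bcl2fastq, STAR 2.6.1c, featureCounts and the build GRCm38.p5. The strand setting of the counting is not given in the sources used here, and Smart-Seq2 does not mark strand. Symbols and coordinates came from GENCODE vM21 (GRCm38), and 36 genes without a match held 0.0821% of reads.

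Wells with fewer than 1500 genes and 8 corner wells were left out, and no doublet caller was run. Median depth was 520281 and 486849 reads per well of plates 1 and 2. Counts were summed per state and plate, and the 8 sums were tested with edgeR 4.0.16 (quasi-likelihood F test, TMM, filterByExpr, common dispersion 0.713, 4 residual degrees of freedom) in R 4.3.3, over 13904 genes with Benjamini-Hochberg adjustment and a threshold of 0.05. Standard errors are those implied by the F statistic. The states were cut from the same cells that were tested, with genes outside the members, so levels that vary with Ncmap, Pmp22 or the cell cycle genes are bound to differ between states. P-values measure the spread between 2 plates. All 4 sums of a plate share 1 pool of animals, which pairs sums of the same plate, and their deviations from the state means correlated between -0.022 and 0.187 over 1976 genes. The fit was also run on simulated counts, drawn independently for each sum. The simulation held no pairing by plate and no single wells, so it does not bear on either.

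For shares of wells with a read, 633 wells were thinned to 100000 reads, and 22 were too shallow. Reads carry no molecular identifiers, so floors of 3 reads or wells cover counting error only. Alternatives were DESeq2 1.42.0, RLE factors, library size alone, no filter on low counts, a plate block, 2500 genes per well, other gates, thinned wells, omission of plate columns 8 and 16, and omission of each plate.

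The members and lists were chosen with earlier results of these data known. All members are given by level, and log2 changes are named for at most the 10 largest called changes per comparison and direction. Other pathway genes are named where called with a mean over 20 CPM, at most 4 per group, except that some items are not reported here. The bins of Pmp22 were chosen after the data were seen.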

Additional observations from a re-analysis of the deposited data

Results flagged for a closer look

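Reads of 4 members in wells left out of all comparisons stood above the highest level of any of the 8 sums. In the 105 wells under the minimum of genes, Insig1 was at 1601 CPM against at most 190 in a sum, from 11653 reads in 22 wells. Of these reads 97.3% came from 26 wells of plate columns 8 and 16, which held 59.3% of the reads of those 105 wells. In the same wells Sc5d was at 349 CPM against at most 339, from 2537 reads in 9 wells, with 64.9% from those columns. In the 8 corner wells Lrp1 was at 177 CPM (28 reads in 5 wells) against at most 19.8, and Scap at 50.5 CPM (8 reads in 1 well) against at most 42.9. The part of plate position in these values was not tested.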

How the results depend on the processing

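Among the log2 changes given with their statistics, 357 of 377 alternative values kept their call, 20 lost it and 0 turned sign. The other 7 called members lost further calls as the report gives for Npc2, Pmvk and Dhcr7. The counts moved with the processing as follows, and the cause was not tested. Between intermediate and immature cells, members higher were 14 with DESeq2, 14 without a filter, 8 with cycling from 2 genes, 8 in thinned wells, 11 with the Pmp22 gate at 45000 CPM and 0 with it at 20000, and members lower were 2 with DESeq2 and 0 with the gate at 20000. Between myelinating and intermediate cells, members higher were 12 with DESeq2, 14 without a filter, 11 with cycling from 2 genes, 14 in thinned wells, 12 with the gate at 20000 and 3 at 45000, and members lower were 2 with DESeq2, library size alone, no filter, the gate at 20000 and thinned wells. Between myelinating and immature cells, members lower were 1 with the gate at 45000, beside 374 of 13969 genes tested. Between cycling and immature cells, members lower were 5 with DESeq2, 6 without a filter and 0 with cycling from 2 genes. The replicate block (plate as the pairing) was run over 13904 genes. Between myelinating and immature cells, 17 members were higher and 2 lower with it, beside 343 and 333 of all genes. Between intermediate and immature cells the members were 4 and 1, beside 132 and 126. Between myelinating and intermediate cells they were 6 and 1, beside 43 and 53. Between cycling and immature cells they were 0 and 3, beside 143 and 134. The block lost Cyp51 and Dhcr7 as given in the report and changed no other call. Over all genes, calls between myelinating and immature cells were 724 higher and 783 lower with DESeq2 and 593 and 604 without a filter, against 362 and 353. Between intermediate and immature cells they were 424 and 520, and 322 and 370, with 232 and 241 in thinned wells, against 137 and 141. They were 180 and 175 with cycling from 2 genes, 79 and 116 with the Pmp22 gate at 20000 and 199 and 174 with it at 45000. Between myelinating and intermediate cells they were 333 and 322, and 206 and 229, with 110 and 104 in thinned wells and 31 and 110 with library size alone, against 50 and 59. They were 73 and 80 with cycling from 2 genes, 61 and 57 with the gate at 20000 and 26 and 51 with it at 45000. Between cycling and immature cells they were 616 and 749, and 371 and 477, with 151 and 51 for cycling from 2 genes, against 180 and 179. Omitting a plate leaves 1 sum per state and no residual degrees of freedom, so it gave values and no count of calls. Abcg1, Soat1, Lss and Hsd17b7 had reads in few immature wells, which limits what their sums can show.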

Other observations

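Of 46 further genes of sterol and isoprenoid metabolism, 45 were in the table and 43 were tested. Between myelinating and immature cells 3 were higher, beside 2.6% of all genes, and 1 was lower, beside 2.54%. Osbpl1a, an oxysterol-binding protein relative of late endosomes, stood at 179 and 154 CPM in immature, 311 and 351 in intermediate and 411 and 446 in myelinating sums, and rose by 1.75 ± 0.20 on the log2 scale (edgeR, adjusted p = 0.0011). Tmem97, which binds sterols and Npc1, went from 101 and 90.2 to 148 and 190 CPM (1.20 ± 0.25, edgeR adjusted p = 0.024). Acat1, the mitochondrial thiolase of ketone body and isoleucine metabolism, went from 325 and 274 to 132 and 105 CPM (-0.95 ± 0.20, edgeR adjusted p = 0.026), while Acat2, the cytosolic thiolase of the synthesis enzymes, was among the members that rose. Of 8 genes for processing and degradation of the regulators, 6 for uptake and efflux and 3 tested oxysterol enzymes, 0 were called in this comparison by edgeR.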
